A study of Mus musculus with 3 samples.

Results

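The 9 genes described here encode Wnt ligands and modulators of Wnt signalling: the ligands Wnt2, Wnt4, Wnt5a, Wnt6 and Wnt11, the receptor Ror1, the secreted modulators Dkk2 and Rspo3, and the nuclear factor Lef1. They were chosen by symbol from the 27998 genes of the count tables, and each symbol matched 1 row in every library. Their levels were followed by cardiomyocyte chamber, endocardial subset, cushion mesenchyme markers and genotype in nuclei of whole mouse hearts at embryonic day 9.5. The genotypes were Ncx1-/-, Ncx1+/- and wild-type Ncx1+/+, where Ncx1 is the alias of Slc8a1, the exchanger that moves calcium out of heart muscle cells in return for sodium. For each genotype 5 microdissected, flash-frozen hearts were pooled and 1 single-nucleus library was made, so a level is that of a pool and no test between genotypes is possible. Ncx1-/- embryos are known to lack a regular heartbeat and serve as a model without blood flow in a study of flow and endocardial cushions. The labels name no tissue restriction, and the sources used here do not say which part of the gene the allele lacks. Intervals are exact at 95% and cover counting error only.

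Wnt proteins are secreted, lipid-modified ligands that bind Frizzled receptors. In the canonical branch they stabilise beta-catenin, which enters the nucleus and acts with TCF and LEF factors on target genes, whereas in the noncanonical branch receptors such as Ror1 and Ror2 act on cell polarity and movement. Dickkopf proteins bind the co-receptors Lrp5 and Lrp6, and R-spondins raise the number of Wnt receptors at the cell surface. In the embryonic heart, canonical signals are known from the cushions and the atrioventricular canal, and Wnt5a and Wnt11 from the outflow tract.

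After filtering, 11231 Ncx1-/-, 11267 Ncx1+/- and 12464 Ncx1+/+ nuclei were kept, with a median of 3545 unique molecular identifiers (UMIs) per nucleus in Ncx1-/-, 3383 in Ncx1+/- and 3773 in Ncx1+/+, and pairs of libraries shared 40 to 57 barcodes. Levels are UMIs summed over the nuclei of a group and scaled to CPM, counts per 1000000 UMIs of the group. In cardiomyocytes, Slc8a1 stood at 1251 CPM in Ncx1-/-, 8178 CPM in Ncx1+/- and 15514 CPM in Ncx1+/+, so the libraries ordered as their labels, although reads remained in Ncx1-/-. The cardiomyocyte class held 6716 Ncx1-/-, 6030 Ncx1+/- and 6362 Ncx1+/+ nuclei and the endocardial class 1329 Ncx1-/-, 1744 Ncx1+/- and 1993 Ncx1+/+ nuclei. Left out of the cardiomyocyte class were clusters led by Dcc and Negr1, by Fat3 and Fgf10, and by Tdgf1 and Gabrb1. Among their leading genes, markers of another class outnumbered cardiomyocyte markers. With these, all cardiomyocyte clusters held 8859 Ncx1-/-, 8441 Ncx1+/- and 9064 Ncx1+/+ nuclei. Chamber groups and sub-clusters were made over all of them, so a class level is not an average over the chambers. Clusters and sub-clusters were made without the 9 genes and are called by their leading genes. Cardiomyocyte RNA reached other nuclei: the summed cardiomyocyte markers of the endocardial class were at 13.6% of their cardiomyocyte level in Ncx1-/-, 10.8% in Ncx1+/- and 10.1% in Ncx1+/+. In erythroid nuclei, which should lack the 9 genes, they were at 57.2% in Ncx1-/-, 31.9% in Ncx1+/- and 28.7% in Ncx1+/+. The share of erythroid nuclei with a UMI of a gene is therefore given as a background, at a median of 1669 UMIs per nucleus in Ncx1-/-, 1769 in Ncx1+/- and 1856 in Ncx1+/+. This background is not a matched one, because erythroid nuclei held more cardiomyocyte RNA than endocardial nuclei.

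A gene was called past the fold in a class when Ncx1-/- stood 1.5-fold or more above, or below, each of the other genotypes, given a minimum of 100 counts there over the 3 libraries. In cardiomyocytes 7 of the 9 genes reached that minimum, of which 2 were lower and 0 higher, where 2.83% of the 13444 measured genes were lower and 3.44% higher. Of 7 members measured in the endocardial class 3 were lower and 1 higher, where 4.34% of 10718 measured genes were lower and 6.7% higher. In the pair of sub-clusters with cushion mesenchyme markers 1 of 4 was lower and 0 higher, where 5.78% of 7112 measured genes were lower and 7.97% higher. The median log2 ratio of Ncx1-/- to Ncx1+/+ was -0.15 over the measured members and -0.04 over all measured genes in cardiomyocytes. It was -0.61 over the members and 0.09 over all genes in the endocardial class, and -0.72 over the members and 0.05 over all genes in the cushion-marker pair. Between Ncx1+/- and Ncx1+/+, 0 of 7 members differed 1.5-fold in cardiomyocytes, where 1.35% of genes were higher and 1.07% lower in Ncx1+/-. Dkk2 and Ror1 of the endocardial class were 1.5-fold lower in Ncx1+/- and no member was higher, where 1.15% of genes were lower and 2.15% higher. In the cushion-marker pair Wnt5a and Ror1 were lower and none higher, where 2.01% of genes were lower and 1.69% higher.

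**Figure D1:**
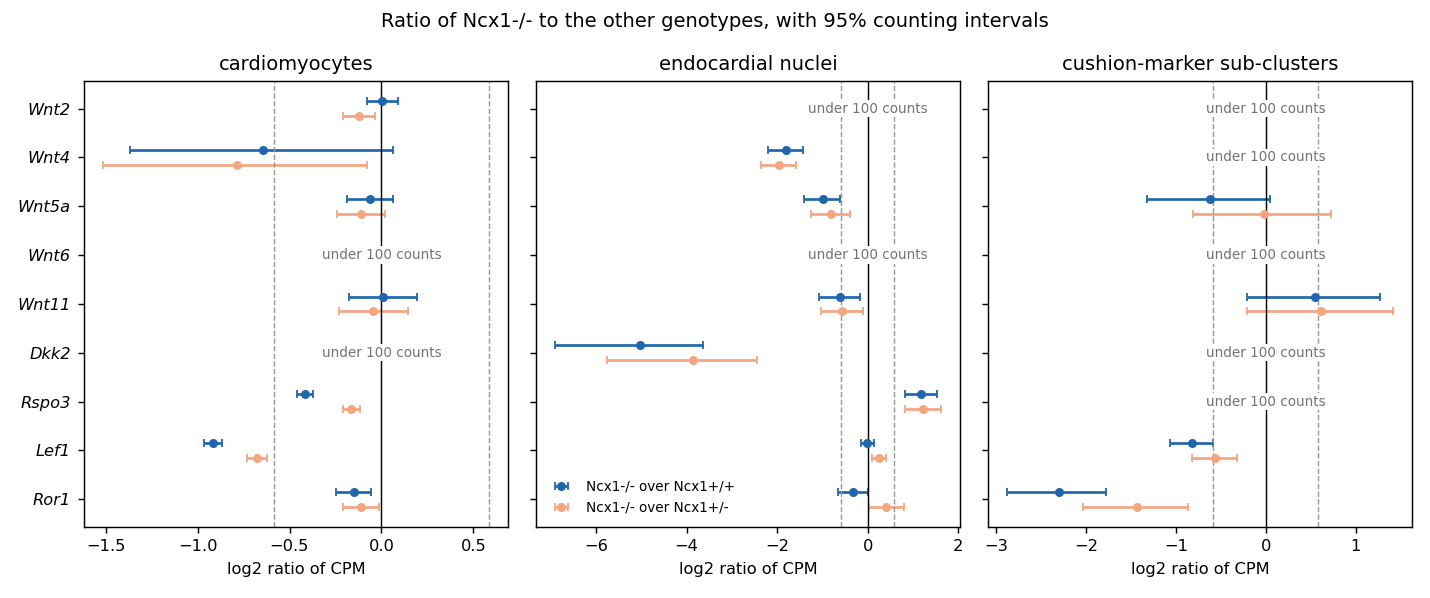
Ratio of the level (CPM of summed UMIs) in Ncx1-/- to that in Ncx1+/+ (blue) and in Ncx1+/- (orange) for the 9 genes, on a log2 axis, with exact 95% counting intervals; dashed lines mark 1.5-fold. Both points of Lef1 and, with a wide interval, Wnt4 lie left of the dashed line in cardiomyocytes. So do both points of Wnt4, Wnt5a and Dkk2 in endocardial nuclei and of Ror1 in the cushion-marker sub-clusters. Both points of Rspo3 lie right of it in endocardial nuclei. Only the blue point lies left for Wnt11 in endocardial nuclei and for Lef1 and Wnt5a in the cushion-marker sub-clusters. Only the orange point of Wnt11 lies right there.

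The genes differed in where they were highest. Wnt2 and Rspo3 were highest in atrioventricular canal-like cardiomyocytes, Wnt5a and Wnt11 in outflow tract-like cardiomyocytes, and Wnt4 in the Fam155a-led endocardial sub-cluster. Wnt6, Dkk2, Ror1 and Lef1 were highest in cluster 17, which held 116 Ncx1-/-, 20 Ncx1+/- and 42 Ncx1+/+ nuclei and stayed unnamed. Its highest-scoring marker list was cushion mesenchyme, but it was not named because endothelial markers were too few. Of that list it carried Cdh11, Tnc, Prrx1 and Pdgfra at 618, 482, 199 and 188 CPM over the 3 libraries. Twist1 stood at 194 CPM, Msx1 at 131, Twist2 at 114 and Prrx2 at 106. The others were lower, with Col3a1 at 61.3 CPM, Snai1 at 13.9, Postn at 11.1, Snai2 at 5.6 and Sox9 at 2.8. Of the epicardial markers Podxl stood at 258 CPM, Lrp2 at 213, Upk3b at 82.1, Bnc1 at 66.8 and Wt1 at 65.4. The others were lower, with Sema3d at 22.3 CPM, Tcf21 at 16.7, Itga4 at 5.6, Upk1b at 4.2, Aldh1a2 at 2.8 and Tbx18 at 0. Endothelial markers ran from 4.2 CPM (Cd34) to 124 CPM (Tek), with Eng at 7.0 CPM. For Lef1 the range over the libraries in cluster 17 overlapped that in the Tbx3os1-led canal sub-cluster, so its first and second places did not differ beyond that spread. Wnt2, Wnt4, Wnt6, Wnt11, Dkk2 and Ror1 had a first place whose range stood clear of the second.

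**Figure D2:**
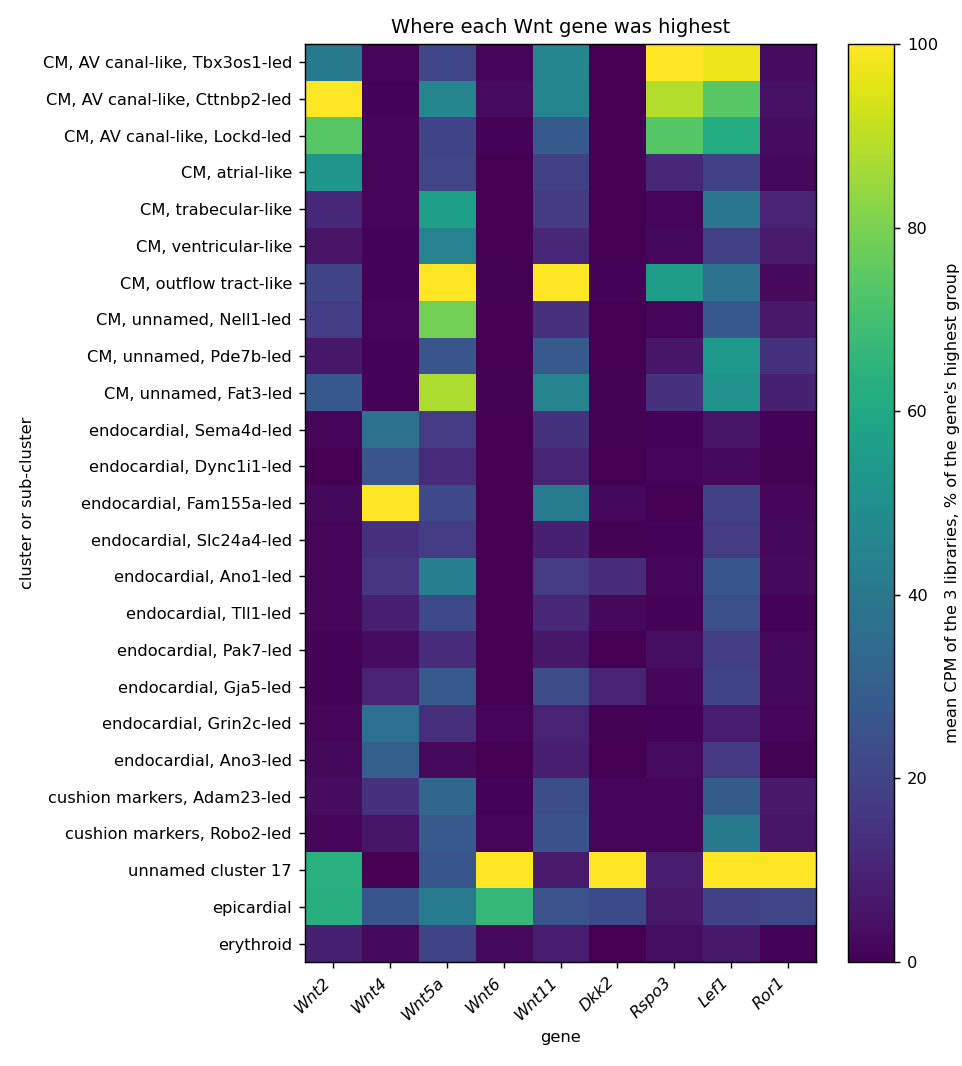
Mean level of the 3 libraries for each gene (columns) in each cluster or sub-cluster (rows), as a percentage of the gene's own highest group; CM is cardiomyocyte. Wnt2 and Rspo3 peak in the canal-like rows, Wnt5a and Wnt11 in the outflow row, Wnt4 in the Fam155a-led row, and Wnt6, Dkk2, Lef1 and Ror1 in cluster 17.

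The promoters of Wnt4, Dkk2, Lef1 and Ror1 are shown because these genes were each lower in Ncx1-/- in at least 1 class and Lef1 protein is known to bind the motif searched for. RefSeq windows (build GRCm38.p6) run from 250 bases before to 50 after an annotated start, 5′ to 3′ on the gene's strand, and were found for 7 of the 9 genes (11 windows); Wnt5a and Rspo3 had no entry. Capitals mark the letters CTTTGA or CTTTGT, or their reverse complements TCAAAG and ACAAAG, searched on both strands.
Wnt4, chr4:137277385-137277684, plus strand: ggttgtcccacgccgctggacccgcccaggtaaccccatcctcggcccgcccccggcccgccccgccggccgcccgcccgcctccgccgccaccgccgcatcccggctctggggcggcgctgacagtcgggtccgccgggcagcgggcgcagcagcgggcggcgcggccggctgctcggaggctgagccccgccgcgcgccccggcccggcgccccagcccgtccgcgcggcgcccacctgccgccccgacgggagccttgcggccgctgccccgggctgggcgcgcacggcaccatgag
Dkk2, chr3:132085042-132085341, plus strand: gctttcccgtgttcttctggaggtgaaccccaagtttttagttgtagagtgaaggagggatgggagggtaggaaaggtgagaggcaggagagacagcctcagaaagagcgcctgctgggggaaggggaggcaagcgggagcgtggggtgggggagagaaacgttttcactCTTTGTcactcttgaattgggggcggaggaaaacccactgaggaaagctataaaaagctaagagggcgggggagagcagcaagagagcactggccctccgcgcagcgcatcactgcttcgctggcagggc
Lef1, window 4 of 4, chr3:131156044-131156343, plus strand: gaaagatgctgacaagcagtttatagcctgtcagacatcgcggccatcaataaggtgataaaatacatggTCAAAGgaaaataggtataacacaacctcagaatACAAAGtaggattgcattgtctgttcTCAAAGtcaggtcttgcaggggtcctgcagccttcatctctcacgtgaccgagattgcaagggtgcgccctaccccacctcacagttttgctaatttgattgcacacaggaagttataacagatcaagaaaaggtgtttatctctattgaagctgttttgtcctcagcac
Ror1, chr4:100095541-100095840, plus strand: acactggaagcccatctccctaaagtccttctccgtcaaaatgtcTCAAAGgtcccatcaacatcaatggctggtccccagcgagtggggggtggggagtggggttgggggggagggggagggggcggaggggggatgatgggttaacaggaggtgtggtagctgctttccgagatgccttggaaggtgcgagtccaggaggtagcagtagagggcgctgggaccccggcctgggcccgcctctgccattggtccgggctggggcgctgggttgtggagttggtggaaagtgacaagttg
The Wnt4 window held no match, the Dkk2 window 1 CTTTGT match and the Ror1 window 1 CTTTGA match. The Lef1 window, which lies within the gene, held 3 matches, and the other 3 Lef1 windows held none. With 1 Wnt11 window, 4 of the 11 windows had a match, near the share of all 32851 mouse promoter windows, of which 31.2% have one (16.0% CTTTGA and 18.7% CTTTGT). A match is a stretch of letters and not a measured binding site.

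Wnt2 (ENSMUSG00000010797, chromosome 6, 17988940 to 18030585, minus strand in mm10) encodes a canonical ligand. In cardiomyocytes it stood at 91.3 CPM in Ncx1-/-, 99.4 CPM in Ncx1+/- and 91.0 CPM in Ncx1+/+, and the ratio of Ncx1-/- to Ncx1+/+ was 1.00 (0.946 to 1.06). By chamber it fell into a steep order that the 3 libraries shared. In atrioventricular canal-like cardiomyocytes the level was 187 CPM in Ncx1-/-, 196 CPM in Ncx1+/- and 177 CPM in Ncx1+/+, and in atrial-like cardiomyocytes 133 CPM in Ncx1-/-, 140 CPM in Ncx1+/- and 142 CPM in Ncx1+/+. Outflow tract-like nuclei followed at 49.8 CPM in Ncx1-/-, 54.4 CPM in Ncx1+/- and 59.6 CPM in Ncx1+/+. Trabecular-like nuclei had 27.8 to 33.2 CPM and ventricular-like nuclei 13.8 to 14.6 CPM. The chamber ranges over the libraries did not overlap. Within the canal group the Cttnbp2-led sub-cluster had 224 CPM in Ncx1-/-, 283 CPM in Ncx1+/- and 286 CPM in Ncx1+/+, and the Tbx3os1-led one 116 CPM in Ncx1-/-, 109 CPM in Ncx1+/- and 94.6 CPM in Ncx1+/+. No cardiomyocyte sub-cluster passed 1.5-fold against both other libraries. In endocardial nuclei 2.63% of Ncx1-/-, 1.15% of Ncx1+/- and 1.86% of Ncx1+/+ nuclei had a Wnt2 UMI, below the erythroid shares of 4.95% in Ncx1-/-, 2.55% in Ncx1+/- and 2.18% in Ncx1+/+. Erythroid nuclei held more cardiomyocyte RNA than endocardial nuclei in each library. The comparison therefore cannot decide on endocardial expression of Wnt2, and none was read. Epicardial nuclei had 146 CPM in Ncx1-/-, 224 CPM in Ncx1+/- (from 43 nuclei) and 128 CPM in Ncx1+/+.

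Wnt4 (ENSMUSG00000036856, chromosome 4, 137277489 to 137299726, plus strand), a ligand known from kidney and gonad development, was highest in an endocardial sub-cluster. In the endocardial class it fell to 12.8 CPM (9.90 to 16.3) in Ncx1-/-, against 49.8 CPM (44.8 to 55.2) in Ncx1+/- and 45.1 CPM (41.0 to 49.4) in Ncx1+/+. The ratio to Ncx1+/+ was 0.284 (0.216 to 0.369) and that to Ncx1+/- 0.257 (0.195 to 0.335), so both other libraries lay clear of Ncx1-/-. A Wnt4 UMI was found in 3.54% of Ncx1-/-, 13.5% of Ncx1+/- and 13.7% of Ncx1+/+ nuclei. Median depth differed, at 3490 UMIs per nucleus in Ncx1-/-, 3940 in Ncx1+/- and 4735 in Ncx1+/+, and after thinning every nucleus to 2000 UMIs the shares were 2.22% in Ncx1-/- (113 shallower nuclei left out), 7.44% in Ncx1+/- (132 left out) and 6.85% in Ncx1+/+ (96 left out). Of erythroid nuclei 0 of 101 in Ncx1-/- (upper bound 3.59%), 1.06% in Ncx1+/- and 0.595% in Ncx1+/+ had a UMI. Epicardial nuclei also held Wnt4, with a UMI after thinning in 5.23% of Ncx1-/-, 0 of 34 Ncx1+/- and 3.28% of Ncx1+/+ nuclei.

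The Fam155a-led sub-cluster, which could not be assigned to a chamber, carried the most Wnt4. It had 67.4 CPM in Ncx1-/-, 124 CPM in Ncx1+/- and 117 CPM in Ncx1+/+, and a UMI was found in 18.2% of its Ncx1-/-, 38.6% of its Ncx1+/- and 38.2% of its Ncx1+/+ nuclei. It also held fewer nuclei in Ncx1-/-, 77 against 267 in Ncx1+/- and 343 in Ncx1+/+. In the Sema4d-led sub-cluster, which had ventricular endocardial markers, the level was 12.9 CPM in Ncx1-/-, 55.8 CPM in Ncx1+/- and 45.8 CPM in Ncx1+/+. The Grin2c-led sub-cluster, with venous and sinus markers and 270 Ncx1-/-, 90 Ncx1+/- and 47 Ncx1+/+ nuclei, had 6.35 CPM in Ncx1-/-, 51.1 CPM in Ncx1+/- and 55.2 CPM in Ncx1+/+. In the Dync1i1-led sub-cluster, also of ventricular type, 0 counts were found in 32 Ncx1-/- nuclei, against 36.0 CPM in Ncx1+/- and 44.1 CPM in Ncx1+/+, which is at least 2.22-fold lower than Ncx1+/- at a floor of 3 counts. With the Slc24a4-led one, 5 of the 7 endocardial sub-clusters with at least 30 Wnt4 counts were past 1.5-fold lower in Ncx1-/- and 0 were higher. At that minimum the share of all genes called lower was 11.5% in the Fam155a-led, 6.95% in the Sema4d-led, 3.28% in the Grin2c-led, 12.1% in the Dync1i1-led and 6.61% in the Slc24a4-led sub-cluster. With the sub-clusters weighted by their Ncx1+/+ sizes, a setting chosen after seeing the data, the class level was 21.0 CPM in Ncx1-/-, 52.4 CPM in Ncx1+/- and 45.1 CPM in Ncx1+/+. Wnt4 in cardiomyocytes was also past the fold, at 1.15 CPM in Ncx1-/-, 1.98 CPM in Ncx1+/- and 1.79 CPM in Ncx1+/+. With 115 counts in all, its ratio to Ncx1+/+ was 0.640 (0.388 to 1.04). The shares of nuclei with a UMI were 0.432% in Ncx1-/-, 0.697% in Ncx1+/- and 0.660% in Ncx1+/+. The Ncx1+/- share lay below the erythroid one and the Ncx1+/+ share slightly above it. The Ncx1-/- share lay within the upper bound of the erythroid nuclei, which had none.

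Wnt5a (ENSMUSG00000021994, chromosome 14, 28504750 to 28527448, plus strand), the main noncanonical ligand and a partner of Ror1, marked the outflow tract. Outflow tract-like cardiomyocytes had 108 CPM in Ncx1-/-, 94.6 CPM in Ncx1+/- and 82.5 CPM in Ncx1+/+, with a ratio to Ncx1+/+ of 1.31 (1.10 to 1.56). Trabecular-like nuclei had 49.0 CPM in Ncx1-/-, 59.3 CPM in Ncx1+/- and 53.4 CPM in Ncx1+/+, and ventricular-like nuclei 41.1 to 42.8 CPM. The atrial-like level was 19.1 to 20.6 CPM. The unnamed Fat3-led and Nell1-led sub-clusters lay between the outflow and trabecular groups, at 79.6 to 87.0 CPM and 71.4 to 80.9 CPM. The range of the outflow group overlapped that of the Fat3-led sub-cluster. Over the cardiomyocyte class, which left out the Tdgf1-led and Fat3-led clusters, the gene stood at 40.2 CPM in Ncx1-/-, 43.4 CPM in Ncx1+/- and 42.0 CPM in Ncx1+/+.

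In the endocardial class Wnt5a fell to 12.8 CPM in Ncx1-/-, against 22.4 CPM in Ncx1+/- and 25.6 CPM in Ncx1+/+, a ratio to Ncx1+/+ of 0.501 (0.376 to 0.659) and to Ncx1+/- of 0.570 (0.422 to 0.763). In Ncx1-/- 4.36% of endocardial nuclei had a UMI, below the 6.93% of erythroid nuclei. Those erythroid nuclei held 57.2% of the cardiomyocyte marker level, against 13.6% in the endocardial class. The comparison therefore cannot decide on endocardial expression in that library. In Ncx1+/- 8.43% of endocardial and 2.12% of erythroid nuclei had one, and in Ncx1+/+ 10.8% of endocardial and 1.79% of erythroid nuclei. The Ano1-led sub-cluster had most, with 51.9 CPM in Ncx1+/- and 64.4 CPM in Ncx1+/+, and Ncx1-/- had 1 count there in 36 nuclei. Ncx1+/- had 47 counts there in 194 nuclei and Ncx1+/+ had 81 in 250 nuclei. Cardiomyocyte markers in this sub-cluster were at 23.2% of their cardiomyocyte level in Ncx1-/-, 11.3% in Ncx1+/- and 11.6% in Ncx1+/+. The part of this in its Ncx1-/- levels was not tested. In the Sema4d-led sub-cluster the level was 16.2 CPM in Ncx1-/-, 17.6 CPM in Ncx1+/- and 16.3 CPM in Ncx1+/+, so the libraries did not differ there beyond counting error. Among 6 endocardial sub-clusters with at least 30 counts, 3 were past the fold lower in Ncx1-/- and 0 higher. Beside the Ano1-led one these were the Slc24a4-led, at 6.68 CPM in Ncx1-/-, 21.3 CPM in Ncx1+/- and 21.4 CPM in Ncx1+/+, and the low-UMI Mtmr14-led, at 8.83 CPM in Ncx1-/-, 30.9 CPM in Ncx1+/- and 26.0 CPM in Ncx1+/+. The share of all genes called lower was 16.4% in the Ano1-led, 6.61% in the Slc24a4-led and 8.17% in the Mtmr14-led sub-cluster.

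Wnt11 (ENSMUSG00000015957, chromosome 7, 98835112 to 98855195, plus strand), a noncanonical ligand of outflow tract development, had the same leading place. Outflow tract-like cardiomyocytes stood at 91.8 CPM in Ncx1-/-, 84.4 CPM in Ncx1+/- and 81.9 CPM in Ncx1+/+. Atrioventricular canal-like nuclei followed at 39.3 CPM in Ncx1-/-, 32.8 CPM in Ncx1+/- and 35.8 CPM in Ncx1+/+, atrial-like nuclei at 15.1 to 17.7 CPM, and ventricular-like nuclei at 8.14 to 11.7 CPM. Over the class, which left out the Tdgf1-led cluster, the level was 19.7 CPM in Ncx1-/-, 20.3 CPM in Ncx1+/- and 19.6 CPM in Ncx1+/+. No cardiomyocyte sub-cluster passed the fold. In the endocardial class it stood at 11.3 CPM in Ncx1-/-, 16.6 CPM in Ncx1+/- and 17.2 CPM in Ncx1+/+, a ratio of 0.655 (0.478 to 0.887) to Ncx1+/+ and 0.678 (0.487 to 0.934) to Ncx1+/-, just short of the fold. A UMI was found in 3.91% of Ncx1-/-, 6.25% of Ncx1+/- and 7.48% of Ncx1+/+ endocardial nuclei, against erythroid shares of 2.97% in Ncx1-/-, 0.849% in Ncx1+/- and 0.595% in Ncx1+/+. Of 3 endocardial sub-clusters with at least 30 counts 2 were past the fold lower and 0 higher, but neither call was clear of counting error against both other libraries. The Sema4d-led one had 8.09 CPM in Ncx1-/-, 16.2 CPM in Ncx1+/- and 13.2 CPM in Ncx1+/+, with a ratio to Ncx1+/+ of 0.611 (0.183 to 1.62), where 6.95% of genes were called lower. The third, the Fam155a-led sub-cluster, had 43.1 CPM in Ncx1-/-, 30.8 CPM in Ncx1+/- and 32.3 CPM in Ncx1+/+. In the Ano1-led sub-cluster, where 16.4% of genes were called lower, no count was found in Ncx1-/-, where 3 counts would be 20.2 CPM, against 17.7 CPM in Ncx1+/- and 28.6 CPM in Ncx1+/+. That floor lies above the Ncx1+/- level, so a difference from Ncx1+/- cannot be told there. Wnt11 was higher in the Robo2-led sub-cluster of Ncx1-/-, at 38.7 CPM against 12.4 CPM in Ncx1+/- and 13.9 CPM in Ncx1+/+, from 18 counts in Ncx1-/-, 11 in Ncx1+/- and 20 in Ncx1+/+, where 11.6% of genes were called higher.

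Wnt6 (ENSMUSG00000033227, chromosome 1, 74771892 to 74785322, plus strand), a ligand of epithelia, was outside the muscle and the endocardium. Cluster 17 had 63.4 CPM in Ncx1-/-, 58.9 CPM in Ncx1+/- and 45.5 CPM in Ncx1+/+, and epicardial nuclei 36.8 CPM in Ncx1-/-, 40.7 CPM in Ncx1+/- and 34.3 CPM in Ncx1+/+. In cardiomyocytes 32 counts were found, 22 of them in Ncx1-/-, 0 in Ncx1+/- and 10 in Ncx1+/+. The endocardial class had 4 counts in Ncx1-/- and 0 in the other libraries, where 3 counts would be 0.408 CPM in Ncx1+/- and 0.300 CPM in Ncx1+/+. Both classes were under the count minimum.

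**Figure D3:**
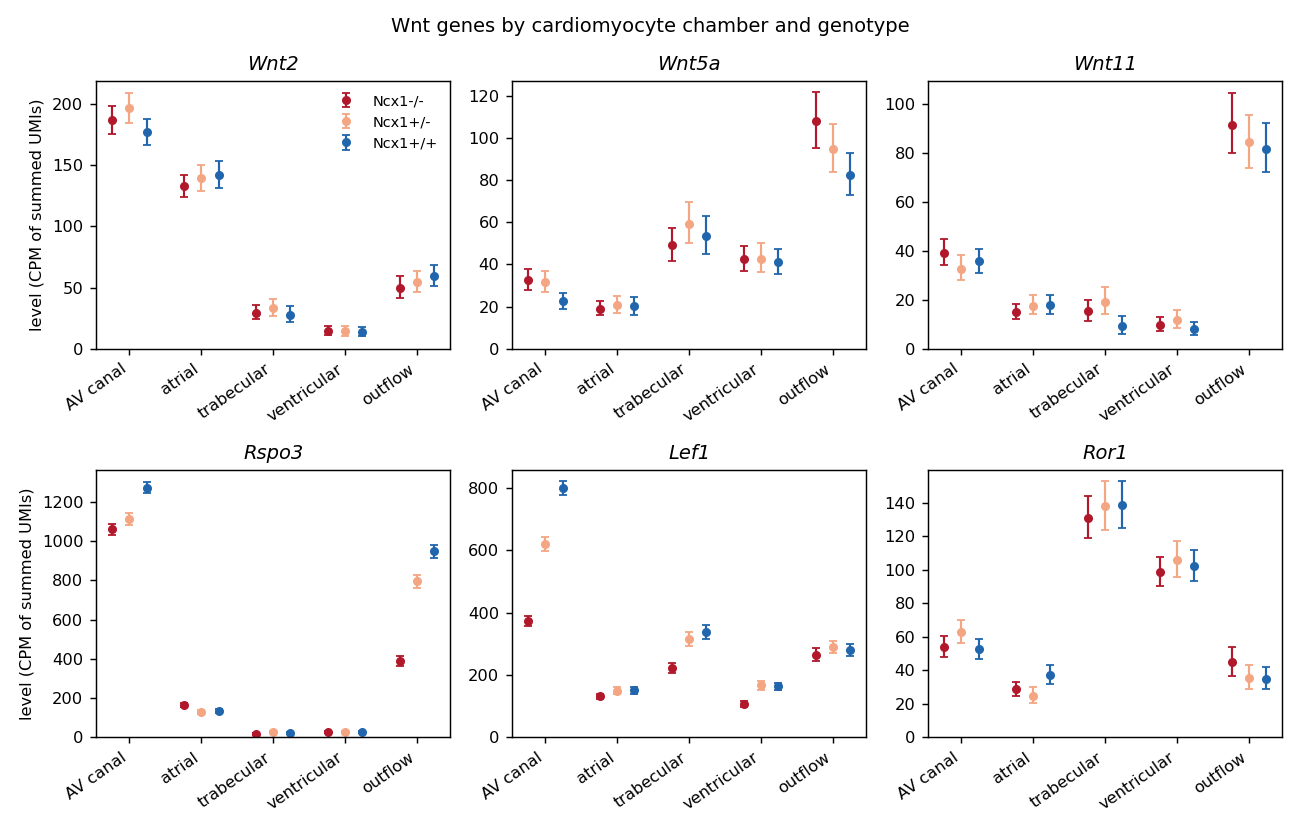
Level (CPM of summed UMIs, axes from 0) of 6 of the genes in 5 cardiomyocyte chamber groups, for Ncx1-/- (red), Ncx1+/- (orange) and Ncx1+/+ (blue), with exact 95% counting intervals. Wnt2 and Wnt5a keep 1 order over the chambers in each library, Wnt11 is highest in the outflow group, Rspo3 of Ncx1-/- is lower in the outflow group, and Lef1 of Ncx1-/- is lower in the canal group.

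Ror1 (ENSMUSG00000035305, chromosome 4, 100095791 to 100444765, plus strand), a receptor tyrosine kinase that binds Wnt5a, was the member past the fold in nuclei with cushion mesenchyme markers. Such markers (10 of 13 each) defined the Adam23-led sub-cluster, with 116 Ncx1-/-, 147 Ncx1+/- and 188 Ncx1+/+ nuclei, and the Robo2-led sub-cluster, with 135 Ncx1-/-, 220 Ncx1+/- and 298 Ncx1+/+ nuclei. Against nuclei outside the lineage their leading genes held more endothelial than cushion markers, so each is described by itself and no cell type is assigned. In the Adam23-led sub-cluster Ror1 fell to 38.8 CPM (23.7 to 60.0) in Ncx1-/-, against 89.6 CPM (70.5 to 112) in Ncx1+/- and 162 CPM (139 to 188) in Ncx1+/+. In the Robo2-led sub-cluster it fell to 23.6 CPM (11.8 to 42.3) in Ncx1-/-, against 81.0 CPM (63.3 to 102) in Ncx1+/- and 152 CPM (132 to 173) in Ncx1+/+. The 3 intervals did not overlap in either sub-cluster, with Ncx1+/- between the other libraries, and 7.32% of genes with 30 counts were called lower in the Adam23-led and 8.92% in the Robo2-led sub-cluster. Over the pair 7.57% of Ncx1-/-, 22.1% of Ncx1+/- and 26.5% of Ncx1+/+ nuclei had a UMI, and after thinning to 2000 UMIs 4.24% of Ncx1-/-, 14.2% of Ncx1+/- and 14.97% of Ncx1+/+ nuclei. Erythroid shares were 3.96% in Ncx1-/-, 0.425% in Ncx1+/- and 1.19% in Ncx1+/+. Cushion mesenchyme markers themselves summed to 931 CPM in the pair in Ncx1-/-, 1230 CPM in Ncx1+/- and 1525 CPM in Ncx1+/+, with 0 of 13 markers undetected. Endothelial markers summed to 4989 CPM in Ncx1-/-, 4137 CPM in Ncx1+/- and 3537 CPM in Ncx1+/+, with 0 of 14 undetected, and the part of either list in the Ror1 difference was not tested.

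In muscle Ror1 was highest, among the 5 named chambers, in trabecular-like and ventricular-like nuclei. Trabecular-like nuclei had 131 CPM in Ncx1-/-, 138 CPM in Ncx1+/- and 138 CPM in Ncx1+/+, ventricular-like nuclei 98.7 CPM in Ncx1-/-, 106 CPM in Ncx1+/- and 102 CPM in Ncx1+/+, and atrial-like nuclei 28.9 CPM in Ncx1-/-, 25.0 CPM in Ncx1+/- and 37.1 CPM in Ncx1+/+. The class level was 67.2 CPM in Ncx1-/-, 72.6 CPM in Ncx1+/- and 74.7 CPM in Ncx1+/+. The class left out the clusters led by Dcc and Negr1, by Fat3 and by Tdgf1. Sub-clusters were made over all cardiomyocyte clusters, so the class level and the sub-cluster levels cover different nuclei. Of 12 sub-clusters with at least 30 counts 4 were past the fold lower in Ncx1-/- and 0 higher. The Pde7b-led sub-cluster, unnamed because markers of another type led it, had 131 CPM in Ncx1-/-, 204 CPM in Ncx1+/- and 269 CPM in Ncx1+/+. In the Fat3-led sub-cluster the level was 75.8 CPM in Ncx1-/-, 140 CPM in Ncx1+/- and 151 CPM in Ncx1+/+, and in the Tbx3os1-led one 26.2 CPM in Ncx1-/-, 56.6 CPM in Ncx1+/- and 53.5 CPM in Ncx1+/+. The low-UMI Nup210l-led sub-cluster was the other one, at 31.1 CPM in Ncx1-/-, 47.1 CPM in Ncx1+/- and 54.1 CPM in Ncx1+/+. Of all genes, 5.92% were called lower in the Pde7b-led, 5.32% in the Fat3-led, 8.52% in the Tbx3os1-led and 4.69% in the Nup210l-led sub-cluster. Cluster 17 stood apart from all of these with 1456 CPM in Ncx1-/-, 1260 CPM in Ncx1+/- and 1541 CPM in Ncx1+/+, and epicardial nuclei had 288 CPM in Ncx1-/-, 238 CPM in Ncx1+/- and 356 CPM in Ncx1+/+.

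Dkk2 (ENSMUSG00000028031, chromosome 3, 132085292 to 132180304, plus strand) encodes a secreted Dickkopf protein that binds Lrp5 and Lrp6. In the endocardial class it was nearly absent from Ncx1-/-, with 4 counts and 0.776 CPM (0.211 to 1.99), against 11.3 CPM (8.99 to 14.0) in Ncx1+/- and 25.3 CPM (22.3 to 28.6) in Ncx1+/+. The ratio to Ncx1+/+ was 0.0307 (0.00830 to 0.0796) and that to Ncx1+/- 0.0687 (0.0183 to 0.183). A UMI was found in 0.301% of Ncx1-/-, 1.89% of Ncx1+/- and 3.96% of Ncx1+/+ nuclei, and in no erythroid nucleus of any library, with upper bounds of 3.59% in Ncx1-/-, 0.780% in Ncx1+/- and 0.729% in Ncx1+/+. Most of the counts came from small sub-clusters. The Ano1-led sub-cluster had 1 count in Ncx1-/- (6.74 CPM from 36 nuclei), 54 counts in Ncx1+/- (59.6 CPM) and 141 counts in Ncx1+/+ (112 CPM), a ratio to Ncx1+/+ of 0.0601 (0.00151 to 0.340). The Gja5-led sub-cluster, with arterial markers, had 0 counts in 92 Ncx1-/- nuclei, against 33.4 CPM in 72 Ncx1+/- nuclei and 107 CPM in 55 Ncx1+/+ nuclei, at least 10.5-fold lower than Ncx1+/+ and 3.26-fold lower than Ncx1+/-. Of all genes, 16.4% were called lower in the Ano1-led and 9.4% in the Gja5-led sub-cluster. In the cushion-marker pair Dkk2 had 0 counts in Ncx1-/-, where 3 counts would be 3.06 CPM, against 10.4 CPM in Ncx1+/- and 15.4 CPM in Ncx1+/+. With Ncx1+/+ sub-cluster weights, chosen after seeing the data, the endocardial level was 2.30 CPM in Ncx1-/-, 11.1 CPM in Ncx1+/- and 25.3 CPM in Ncx1+/+. Cluster 17 held Dkk2 in each genotype, at 474 CPM in Ncx1-/-, 283 CPM in Ncx1+/- and 648 CPM in Ncx1+/+, with a UMI in 52.6% of Ncx1-/-, 40.0% of Ncx1+/- and 73.8% of Ncx1+/+ nuclei.

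**Figure D4:**
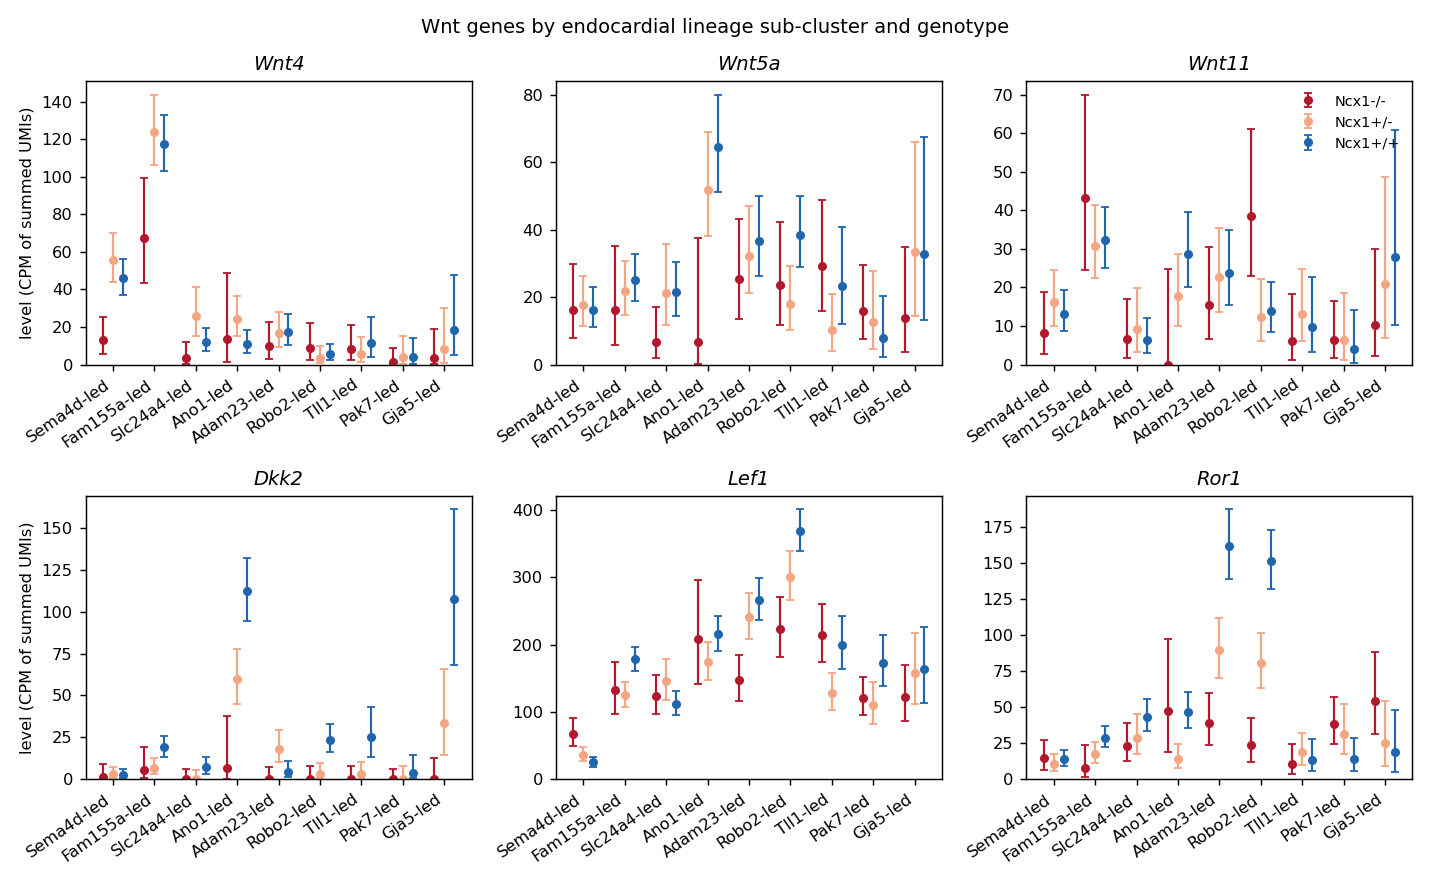
Level (CPM of summed UMIs, axes from 0) of 6 of the genes in 9 endocardial lineage sub-clusters, called by their leading gene, for Ncx1-/- (red), Ncx1+/- (orange) and Ncx1+/+ (blue), with exact 95% counting intervals. Wnt4 is highest in the Fam155a-led sub-cluster, Dkk2 is high in the Ano1-led and Gja5-led sub-clusters of Ncx1+/- and Ncx1+/+ and near 0 in Ncx1-/-, and Ror1 is lowest in Ncx1-/- in the Adam23-led and Robo2-led sub-clusters.

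Rspo3 (ENSMUSG00000019880, chromosome 10, 29452416 to 29535867, minus strand), an R-spondin that amplifies canonical signals, was concentrated in canal and outflow muscle. In atrioventricular canal-like cardiomyocytes it stood at 1060 CPM in Ncx1-/-, 1112 CPM in Ncx1+/- and 1271 CPM in Ncx1+/+, a ratio to Ncx1+/+ of 0.834 (0.806 to 0.863). In outflow tract-like cardiomyocytes it fell to 389 CPM (364 to 414) in Ncx1-/-, against 796 CPM (763 to 829) in Ncx1+/- and 948 CPM (914 to 982) in Ncx1+/+. The outflow ratio was 0.410 (0.381 to 0.442) to Ncx1+/+ and 0.489 (0.453 to 0.528) to Ncx1+/-, and 8.64% of all genes were called lower in that group. A UMI was found in 40.1% of Ncx1-/-, 61.4% of Ncx1+/- and 68.0% of Ncx1+/+ outflow nuclei, and after thinning in 33.2% of Ncx1-/-, 55.1% of Ncx1+/- and 61.3% of Ncx1+/+ nuclei. In the Fat3-led sub-cluster the level was 111 CPM in Ncx1-/-, 217 CPM in Ncx1+/- and 212 CPM in Ncx1+/+. Rspo3 was past the fold lower in 3 of 13 cardiomyocyte sub-clusters, the outflow, Fat3-led and Nup210l-led ones, and higher in 0, where 5.32% of genes were called lower in the Fat3-led and 4.69% in the Nup210l-led one. Atrial-like nuclei ran the other way, with 166 CPM in Ncx1-/-, 128 CPM in Ncx1+/- and 134 CPM in Ncx1+/+. Trabecular-like and ventricular-like nuclei were low, at 18.5 to 27.3 CPM and 27.4 to 29.4 CPM. Over the class, which left out the Tdgf1-led and Fat3-led clusters, 290 CPM in Ncx1-/-, 325 CPM in Ncx1+/- and 386 CPM in Ncx1+/+ did not pass the fold.

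Among the 3 classes the only member past the fold in the higher direction was Rspo3 in endocardial nuclei, at 27.9 CPM in Ncx1-/-, 12.0 CPM in Ncx1+/- and 12.4 CPM in Ncx1+/+. The share of endocardial nuclei with a UMI was 5.49% in Ncx1-/-, 3.84% in Ncx1+/- and 4.06% in Ncx1+/+, against erythroid shares of 5.94% in Ncx1-/-, 3.18% in Ncx1+/- and 2.38% in Ncx1+/+. The Ncx1-/- share did not exceed the erythroid one. Those erythroid nuclei held 57.2% of the cardiomyocyte marker level, against 13.6% in the endocardial class. The comparison therefore cannot decide on endocardial expression in Ncx1-/-. Cardiomyocyte marker RNA was also highest in the endocardial nuclei of Ncx1-/-, and its part in the higher Rspo3 level was not tested. The Pak7-led sub-cluster held 54 of the 144 Ncx1-/- counts and stood at 86.4 CPM in Ncx1-/-, 27.6 CPM in Ncx1+/- and 25.6 CPM in Ncx1+/+, where 5.98% of all genes were called higher. The Sema4d-led sub-cluster was the other of 3 past the fold higher, at 21.0 CPM in Ncx1-/-, 8.81 CPM in Ncx1+/- and 7.64 CPM in Ncx1+/+, where 6.79% of genes were called higher.

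Lef1 (ENSMUSG00000027985, chromosome 3, 131110471 to 131224356, plus strand), the nuclear partner of beta-catenin and itself a known target of canonical signals, was the only member whose cardiomyocyte level was past the fold with counting intervals below 1 against both other libraries. In the cardiomyocyte class it fell to 191 CPM in Ncx1-/-, against 306 CPM in Ncx1+/- and 361 CPM in Ncx1+/+, a ratio of 0.530 (0.512 to 0.549) to Ncx1+/+ and 0.625 (0.603 to 0.649) to Ncx1+/-. The difference was largest among the 5 named chambers in atrioventricular canal-like nuclei, at 374 CPM (358 to 391) in Ncx1-/-, 620 CPM (599 to 642) in Ncx1+/- and 799 CPM (777 to 822) in Ncx1+/+, where 5.11% of genes were called lower. There 60.2% of Ncx1-/-, 68.4% of Ncx1+/- and 76.4% of Ncx1+/+ nuclei had a UMI, and after thinning 44.9% of Ncx1-/-, 58.2% of Ncx1+/- and 64.6% of Ncx1+/+ nuclei. Trabecular-like nuclei had 223 CPM in Ncx1-/-, 315 CPM in Ncx1+/- and 337 CPM in Ncx1+/+. Within the canal-like group the Tbx3os1-led sub-cluster had 383 CPM in Ncx1-/-, 774 CPM in Ncx1+/- and 1006 CPM in Ncx1+/+, and Ncx1-/- was past the fold. It held 458 of 1555 canal-like nuclei in Ncx1-/-, 591 of 1504 in Ncx1+/- and 701 of 1581 in Ncx1+/+. The Cttnbp2-led one held 839 in Ncx1-/-, 637 in Ncx1+/- and 570 in Ncx1+/+. The part of this shift in the difference of the canal-like group was not tested. The Pde7b-led sub-cluster had 215 CPM in Ncx1-/-, 466 CPM in Ncx1+/- and 504 CPM in Ncx1+/+, and the Nell1-led one 131 CPM in Ncx1-/-, 245 CPM in Ncx1+/- and 235 CPM in Ncx1+/+. Ventricular-like nuclei had 107 CPM in Ncx1-/-, 167 CPM in Ncx1+/- and 163 CPM in Ncx1+/+. The Tbx3os1-led, Pde7b-led, Nell1-led and ventricular-like sub-clusters were the 4 of 13 past the fold lower, with 0 higher. The Cttnbp2-led and Lockd-led sub-clusters of the canal-like group were not past it. Of all genes, 8.52% were called lower in the Tbx3os1-led, 5.92% in the Pde7b-led, 2.48% in the Nell1-led and 2.8% in the ventricular-like one.

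Outflow and atrial muscle differed less. Outflow tract-like nuclei had 265 CPM of Lef1 in Ncx1-/-, 290 CPM in Ncx1+/- and 279 CPM in Ncx1+/+, a ratio to Ncx1+/+ of 0.947 (0.854 to 1.05), and atrial-like nuclei 132 CPM in Ncx1-/-, 150 CPM in Ncx1+/- and 151 CPM in Ncx1+/+. Rspo3 and Lef1 thus had their lowest ratios in different chambers, Rspo3 in the outflow and Lef1 in the canal group, which is a description of single libraries and was not tested. In the endocardial class Lef1 stood at 123 CPM in Ncx1-/-, 103 CPM in Ncx1+/- and 123 CPM in Ncx1+/+, a ratio to Ncx1+/+ of 0.995 (0.903 to 1.10). Of 11 endocardial sub-clusters only the Sema4d-led one was past the fold, higher in Ncx1-/- at 67.9 CPM against 36.7 CPM in Ncx1+/- and 25.5 CPM in Ncx1+/+, where 6.79% of genes were called higher. In the Adam23-led sub-cluster it fell to 148 CPM in Ncx1-/-, against 241 CPM in Ncx1+/- and 266 CPM in Ncx1+/+. The Robo2-led sub-cluster had 223 CPM in Ncx1-/-, 301 CPM in Ncx1+/- and 370 CPM in Ncx1+/+, short of the fold against Ncx1+/-. Over the pair 39.4% of Ncx1-/-, 54.0% of Ncx1+/- and 55.1% of Ncx1+/+ nuclei had a UMI, and erythroid shares were 15.8% in Ncx1-/-, 3.82% in Ncx1+/- and 3.77% in Ncx1+/+. An antisense gene, Gm43352, overlaps the start of Lef1 and had 315 counts over all barcodes. The class difference in cardiomyocytes held with the sub-clusters weighted as in Ncx1+/+, at 203 CPM in Ncx1-/-, 316 CPM in Ncx1+/- and 361 CPM in Ncx1+/+, and with the clusters left out of the class added back, at 210 CPM in Ncx1-/-, 329 CPM in Ncx1+/- and 374 CPM in Ncx1+/+. Without doublet removal the log2 ratio to Ncx1+/+ was -0.40, against -0.92, so the call was lost.

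The other genes of the pathway were followed as a list of 88, grouped by role. In cardiomyocytes 53 were measured, of which 3 were past the fold higher and 2 lower, near the shares of all genes there, 3.44% higher and 2.83% lower, and their median log2 ratio to Ncx1+/+ was -0.04, as over all measured genes. The higher ones were the Frizzled receptors Fzd1, at 4.09 CPM in Ncx1-/-, 2.55 CPM in Ncx1+/- and 2.33 CPM in Ncx1+/+, Fzd7, at 7.42 CPM in Ncx1-/-, 4.91 CPM in Ncx1+/- and 3.59 CPM in Ncx1+/+, and Fzd8, at 5.01 CPM in Ncx1-/-, 3.25 CPM in Ncx1+/- and 2.58 CPM in Ncx1+/+. The lower ones were Nkd1, a feedback inhibitor induced by canonical signals, at 4.17 CPM in Ncx1-/-, 8.16 CPM in Ncx1+/- and 7.25 CPM in Ncx1+/+, and the polarity cadherin Celsr2, at 1.72 CPM in Ncx1-/-, 2.69 CPM in Ncx1+/- and 3.46 CPM in Ncx1+/+. The 4 measured feedback targets had a median log2 ratio of -0.66. Axin2, the usual readout of canonical signals, was short of the fold, at 9.18 CPM in Ncx1-/-, 12.8 CPM in Ncx1+/- and 15.5 CPM in Ncx1+/+. The nuclear factor with most counts, Tcf7l2, a relative of Lef1, stood at 337 CPM in Ncx1-/-, 406 CPM in Ncx1+/- and 429 CPM in Ncx1+/+, and Ror2, a relative of Ror1, at 365 CPM in Ncx1-/-, 345 CPM in Ncx1+/- and 347 CPM in Ncx1+/+.

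Endocardial nuclei had 44 of the list measured, 1 higher and 2 lower, where 6.7% of all genes were higher and 4.34% lower, so the counts were near or below those shares, with a median log2 ratio of -0.14. The bone-associated inhibitor Sost was higher, at 24.1 CPM in Ncx1-/-, 9.12 CPM in Ncx1+/- and 6.89 CPM in Ncx1+/+. The R-spondin receptor Lgr5 was lower, at 1.36 CPM in Ncx1-/-, 6.94 CPM in Ncx1+/- and 8.99 CPM in Ncx1+/+, as was the polarity gene Prickle2, at 244 CPM in Ncx1-/-, 407 CPM in Ncx1+/- and 442 CPM in Ncx1+/+. Over the cushion-marker pair 30 were measured, 0 higher and 3 lower, where 7.97% of all genes were higher and 5.78% lower, with a median of -0.18. The polarity gene Prickle1 had 154 CPM in Ncx1-/-, 277 CPM in Ncx1+/- and 312 CPM in Ncx1+/+, Prickle2 had 223 CPM in Ncx1-/-, 473 CPM in Ncx1+/- and 474 CPM in Ncx1+/+, and the ligand Wnt5b had 18.4 CPM in Ncx1-/-, 30.7 CPM in Ncx1+/- and 31.2 CPM in Ncx1+/+. Of the canonical targets with most counts there, Nkd1 had 43.8 CPM in Ncx1-/-, 58.5 CPM in Ncx1+/- and 70.8 CPM in Ncx1+/+, and Ccnd1 had 48.9 CPM in Ncx1-/-, 50.4 CPM in Ncx1+/- and 45.5 CPM in Ncx1+/+.

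**Figure D5:**
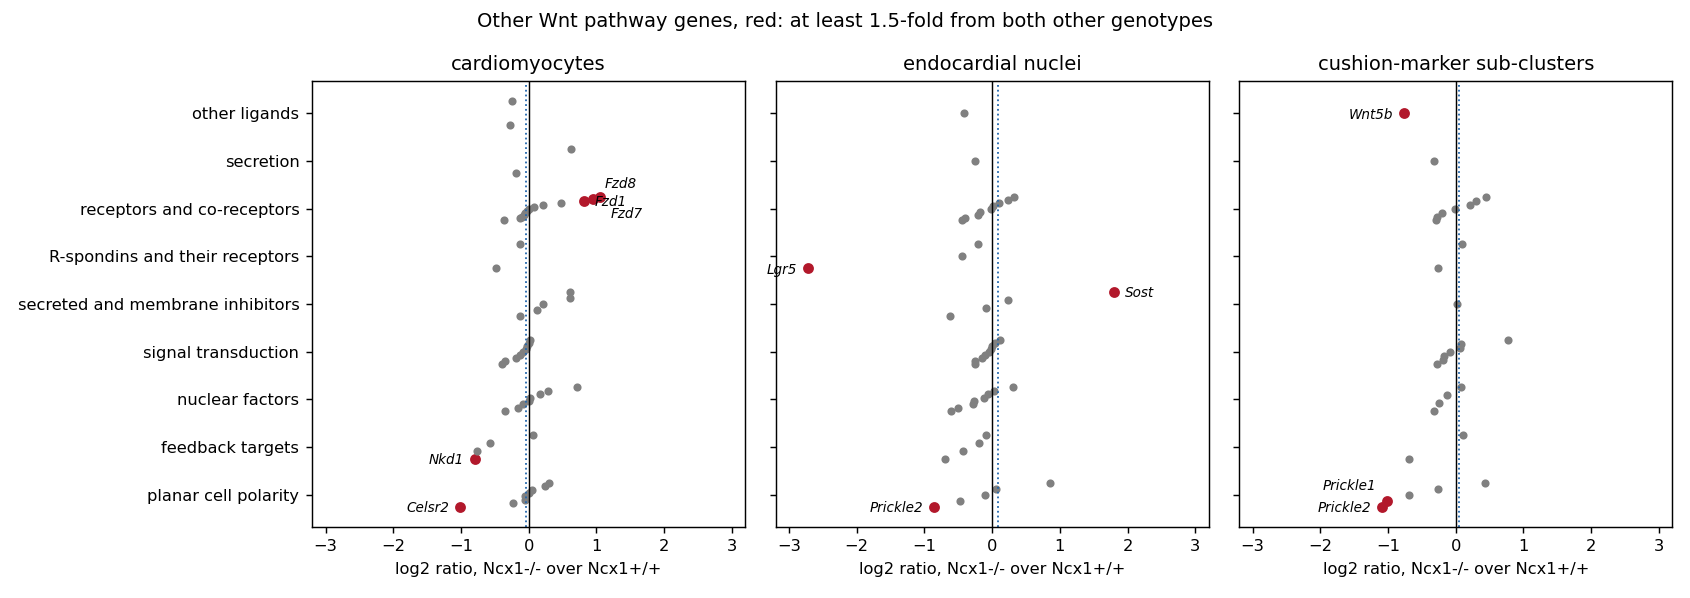
Log2 ratio of Ncx1-/- to Ncx1+/+ for the other measured Wnt pathway genes (points) by role (rows) in cardiomyocytes, endocardial nuclei and the cushion-marker sub-clusters; red points are at least 1.5-fold from both other genotypes and the dotted line is the median of all measured genes. Of the points, 3 are higher and 2 lower in cardiomyocytes, 1 higher and 2 lower in endocardial nuclei, and 3 lower in the cushion-marker sub-clusters.

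The genes most like each member were found from Pearson correlations of log2(CPM + 1) over the 33 clusters and sub-clusters pooled over libraries. These points share libraries and differ in depth, so the values are descriptions. Wnt2 was nearest to Gnao1, a G protein subunit, at 0.89, Wnt4 to Olfml2a at 0.89, and Wnt5a to the unannotated Gm42835 at 0.82, followed by Tgfb3, a TGF-beta ligand, at 0.77. Wnt6 was nearest to the epicardial gene Bnc1 at 0.95, and Wnt11 to the laminin chain Lamb2 at 0.83. Dkk2 was nearest to Tpbg at 0.84, Rspo3 to the canal transcription factor Tbx2 at 0.88, Lef1 to the BMP effector Smad9 at 0.77, and Ror1 to Pdzrn3 at 0.88. Among the 9 genes the highest values were 0.79 for Wnt2 with Rspo3 and 0.66 for Wnt5a with Wnt11, and the lowest was -0.62 for Wnt4 with Lef1.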

How the data were processed

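The authors deposited raw UMI counts for each gene in each barcode, with no scaling. They came, per the submitters' processing notes, from Cell Ranger 6.1.0 with the build mm10, and per the file headers from Cell Ranger 9.0.0. The sources used here do not say whether introns were counted. Per the labels' protocols, nuclei of frozen hearts were sorted and libraries made with a 10x v3.1 kit.

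Barcodes with at least 500 genes and at most 5% mitochondrial counts were kept, and the top 8% by Scrublet score were removed as doublets (1094 in Ncx1-/-, 1038 in Ncx1+/- and 1098 in Ncx1+/+), because the automatic threshold called 0% in Ncx1-/-. Nuclei were clustered with scanpy 1.11.5 (2000 variable genes without the 9 members, 30 components, 15 neighbours, Leiden resolution 1) and named from marker lists. A class left out clusters led by markers of another class; sub-clusters were made over all clusters of a lineage with genes centred per library. Counts were summed per group and library and scaled to CPM. Sub-clusters used a minimum of 30 counts. Intervals are exact Poisson, binomial or Clopper-Pearson. The calling rule and the ratio intervals were run on simulated Poisson counts with known folds. These hold counting error only, so the run says nothing about variation between hearts or libraries. Named genes are the members, pathway genes past the fold or the 2 with most counts of a role, and the 3 genes most like each member. Members and lists were chosen with earlier results of these data known. Of 27998 identifiers, 27722 (99.0%) matched GENCODE M21.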

Additional observations from a re-analysis of the deposited data

How the results depend on the processing

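The call of Lef1 in cardiomyocytes, of Wnt4, Wnt5a and Dkk2 in endocardial nuclei and of Ror1 in the cushion-marker pair rests on 1 library per genotype, and depth limits Wnt6 everywhere, Dkk2 and Wnt4 in cardiomyocytes, and the smallest sub-clusters. Lower members in cardiomyocytes were 2 in the reported setting, 1 (Lef1) when the counting interval had to exclude 1, at Leiden resolution 2.0, with the members kept among the variable genes, with at least 1000 genes per nucleus, with Ncx1+/+ weights or with the left-out clusters included, and 0 at 2-fold or without doublet removal. Higher members there were 0, and 1 (Wnt6) with a minimum of 30 counts or none. Endocardial higher members were 1 (Rspo3), 3 with no minimum, and 2 (with Wnt2) at a minimum of 30, at resolution 2.0, without centring or with 1000 genes. Endocardial lower members were 3, and between 2 and 4 under every alternative. In the cushion-marker pair higher members were 0, and 1 with no minimum (Wnt6) or with Ncx1+/+ weights (Wnt11), while lower members were 1, 2 with TMM or median-of-ratios factors (Lef1 and Ror1) or a minimum of 30 or none (Dkk2 and Ror1), and 3 without doublet removal. The Ncx1+/+ weights and the left-out clusters were chosen after seeing the data, and the causes of these changes were not tested. Over the alternatives the log2 ratio of Ncx1-/- to Ncx1+/+ ran from -1.03 to -0.40 for Lef1 in cardiomyocytes, from -1.90 to -1.10 for Wnt4, from -1.09 to -0.80 for Wnt5a and from -5.17 to -3.46 for Dkk2 in endocardial nuclei, and from -2.37 to -1.90 for Ror1 in the cushion-marker pair. Rspo3 over the cardiomyocyte class ran from -0.61 to 0.27, and the positive value came without doublet removal. No paired analysis was possible because each genotype has 1 library.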
